A study of Mus musculus with 8 samples.

Results

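The transcripts described here are those of the mouse major histocompatibility complex, whose genes carry the prefix H2-, and of the proteins that load and regulate its products, in testis RNA. They comprise every probe set with at least 1 array annotation symbol that starts with H2-, and those of B2m, Tap1, Tap2, Tapbp, Cd74, Ciita, Psmb8, Psmb9 and Psmb10, which came to 61 of the 12422 probe sets on the array, for 46 of its 8949 named genes. Of the 61, 44 belonged to the class I pathway, 15 to the class II pathway, and 2, both of H2-Ke6, to neither. Each probe set reads several short probes together and gives 1 intensity. Testis total RNA was hybridised to Affymetrix arrays from 4 groups of house mice, called castaneus, domesticus, musculus and ssp after the word that follows Mus musculus in each title, with 2 technical replicate arrays per group. No group is a control, no treatment is named, and neither age nor number of animals is given in the sources used here. What ssp stands for is not stated, so it is used only as a group name.

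Class I molecules pair a polymorphic heavy chain with beta 2-microglobulin and show peptides from inside the cell to CD8 T cells. The peptides are cut by the proteasome, pumped into the endoplasmic reticulum by the Tap transporter and loaded with the help of tapasin. Class II molecules pair an alpha and a beta chain, are escorted by the invariant chain and exchange it for endosomal peptides with the help of H2-DM. They are made mainly by macrophages, dendritic cells and B cells under the control of the transactivator Ciita. The testis is known as an immune-privileged organ in which developing germ cells carry little class I on their surface and class II is found mostly on interstitial macrophages.

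Of the 61 probe sets, 48 passed the filter on dim values, 36 of class I, 10 of class II and both of H2-Ke6. The filter asked for an intensity at or above the 40th percentile of the array on 2 or more of the 8 arrays. Tests were two-sided and came from moderated linear models (limma) over all 8 arrays, on log2 intensity with values under 18.7 raised to that floor. A probe set was called if its Benjamini-Hochberg adjusted p over all 8874 tested probe sets was under 0.05 and its group means differed by at least 1 on the log2 scale. Group values are geometric means of 2 arrays, and each SD is that of 2 log2 values. Because the arrays of a group are technical replicates, every p-value measures the spread between arrays and not between animals.

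The deposited arrays had been scaled alike, with trimmed means of 495.1 to 495.9 and medians of 151.2 to 182.6 intensity units, and 7.34% to 13% of an array's probe sets lay under the floor. Of 8 germ cell markers of testis, Prm1, Tnp1, Tnp2, Ldhc, Acr and Pgk2 were bright on every array by their brightest probe set, with group means of 47842 to 68067 for Prm1, a protamine of sperm chromatin. Prm2 averaged only 128 to 221, and Sycp3 was under the floor on 7 of 8 arrays. The median difference between replicate arrays was 0.37 to 0.46 log2 over all tested probe sets and 0.3 to 0.58 over the 48 probe sets described here, widest in ssp in both. Histocompatibility genes differ in sequence between mice. An intensity depends both on the amount of transcript and on how well it matches the probes, and these cannot be told apart here. In whole testis RNA, fewer cells of a type and less RNA per cell cannot be told apart either. Of the 61 probe sets, 30 carried an identifier suffix such as _f or _s, by which the manufacturer marks probes that may bind transcripts of related genes or that met fewer of its rules, and 11 were annotated with several gene symbols. The share with a suffix was 22.6% over the whole array.

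Of the 48 tested probe sets, 2 differed among the 4 groups, against 1.76% of all tested probe sets. They were that of H2-Aa, a class II alpha chain, and 1 of the 2 probe sets shared by H2-T9, H2-T22 and H2-T10, which are nonclassical class I heavy chains. A further 13 had an unadjusted p under 0.05 and were not called, so that 15 of 48 were under 0.05 unadjusted, beside 1415 of all 8874. The group means of the 48 spanned a median of 1.14 log2, beside 0.81 over all tested probe sets.

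**Figure D1:**
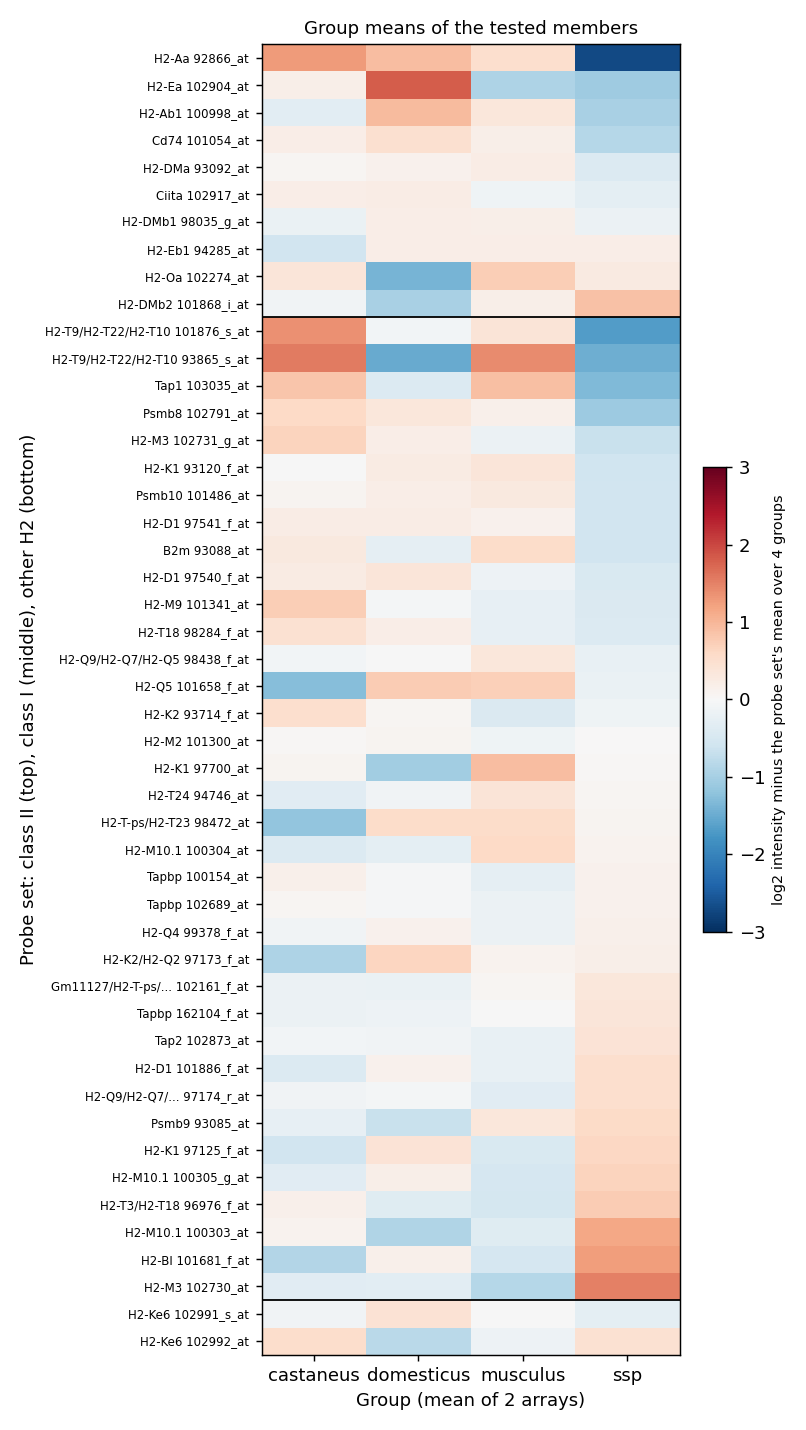
Group mean log2 intensity of each of the 48 tested probe sets (rows, named by symbol and identifier) relative to that probe set's mean over the 4 groups (columns), red above and blue below, with class II at the top, class I in the middle and H2-Ke6 at the bottom. H2-Aa in ssp is the deepest blue, and the 2 probe sets of H2-T9, H2-T22 and H2-T10 are low in ssp while those of H2-Bl and 1 of H2-M3 are high there.

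The class II alpha chain H2-Aa was far lower in ssp than in the other 3 groups. It read 672.6 and 435.3 in castaneus, 481.6 and 373 in domesticus, 287.6 and 348.3 in musculus, and 24.9 and 47.1 in ssp. Both ssp arrays lay below all 6 others, near the floor, and the other groups overlapped one another. The difference among groups was called (limma, adjusted p = 0.0306), but not with replicate number as a block in the fit (0.0659). H2-Aa was 15.8-fold higher in castaneus than in ssp (log2 difference 3.98, SE 0.40, adjusted p = 0.0284), 12.4-fold higher in domesticus than in ssp (3.63, adjusted p = 0.0261) and 9.24-fold higher in musculus than in ssp (3.21, adjusted p = 0.0361). Leaving out any 1 of the 8 arrays kept castaneus above ssp by 3.52 to 4.44 log2 but ended the call (limma, adjusted p = 0.0596 to 0.102), and so did testing without a filter on dim probe sets (0.0572).

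The partner of H2-Aa in the A molecule, the beta chain H2-Ab1, had its lowest mean in ssp too, with a wide spread. It read 249.8 and 111.8 in castaneus, 441.4 and 372.9 in domesticus, 272.6 and 258.8 in musculus, and 55.6 and 206.7 in ssp. The domesticus arrays lay above all others, the ssp and castaneus arrays overlapped, and the difference among groups did not pass (adjusted p = 0.421). The chains of the E molecule had other patterns. H2-Ea, its alpha chain, which is not made in C57BL/6 mice because its promoter is deleted, read 100.5 and 51.8 in castaneus, 211.9 and 239.7 in domesticus, 61.3 and 9.5 in musculus, and 18 and 50.3 in ssp. Both domesticus arrays were above the other 6, and 1 musculus and 1 ssp array were under the floor. With those arrays raised to the floor, H2-Ea in domesticus was at least 7.35-fold above ssp and at least 6.66-fold above musculus, and neither passed (adjusted p = 0.186 and 0.193).

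H2-Eb1, the beta chain of the E molecule, did not share the low ssp values. It read 383.7 and 102.7 in castaneus, 378.8 and 308.6 in domesticus, 438.3 and 264.6 in musculus, and 508.7 and 230 in ssp, so that all groups overlapped (adjusted p = 0.838). The domesticus minus ssp difference of H2-Eb1 was 0.00 log2, beside 3.63 for H2-Aa. In all 4 groups H2-Eb1 was higher on replicate 1 than on replicate 2. The related beta chain H2-Eb2 read 6.3 to 30 over the 8 arrays and was too dim to be tested, as was the pseudogene H2-Pa at 17.7 to 64.2.

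The promoters of H2-Aa and H2-Eb1 are shown because these neighbouring class II genes differed in pattern while class II genes share regulatory boxes. The sequences are those of the C57BL/6J reference (RefSeq, GRCm38.p6), not of the mice measured, and run 5' to 3' over the 250 bases before each gene's start. Capitals mark matches on either strand to the X box core CNNGCAAC and the Y box ATTGG, letters chosen after these promoters had been read. H2-Aa lies on the minus strand at chr17:34287824-34288073 and H2-Eb1 on the plus strand at chr17:34305617-34305866.
H2-Aa: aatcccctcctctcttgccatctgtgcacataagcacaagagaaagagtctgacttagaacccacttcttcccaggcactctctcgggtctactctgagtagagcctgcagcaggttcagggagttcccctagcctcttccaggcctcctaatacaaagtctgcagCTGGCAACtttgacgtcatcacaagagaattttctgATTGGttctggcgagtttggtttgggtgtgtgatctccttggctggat
H2-Eb1: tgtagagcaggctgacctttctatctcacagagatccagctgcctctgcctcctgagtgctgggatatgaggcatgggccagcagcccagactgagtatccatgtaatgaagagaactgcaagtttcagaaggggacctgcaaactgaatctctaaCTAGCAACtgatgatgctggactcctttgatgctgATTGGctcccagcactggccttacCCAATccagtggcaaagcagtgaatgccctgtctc
Both windows hold an X box core upstream of a Y box, starting at -84 and -48 in H2-Aa and at -94 and -59 in H2-Eb1, counted from the gene's start. Over all 32851 promoter windows of this length, 9.26% held the X box core and 33.8% the Y box. Of the 8 class II genes with a window in the table, 5 held both (H2-Aa, H2-Eb1, H2-Eb2, H2-Oa and H2-Ob) and all 8 held the Y box, while of 21 class I pathway genes 3 held both, 2 of them being Tap1 and Psmb9, whose windows overlap head to head, and the other H2-D1. The letters were chosen with H2-Aa and H2-Eb1 in view, so the matches of these genes were fixed beforehand. The share of all windows that hold both boxes was not counted. A gene with several windows was counted if any of them held the match, while the shares over all windows are per window. For H2-DMa the window starting at 34125268 held the Y box and that starting at 34122582 did not. The X box and Y box matches do not overlap in the windows printed.

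**Figure D2:**
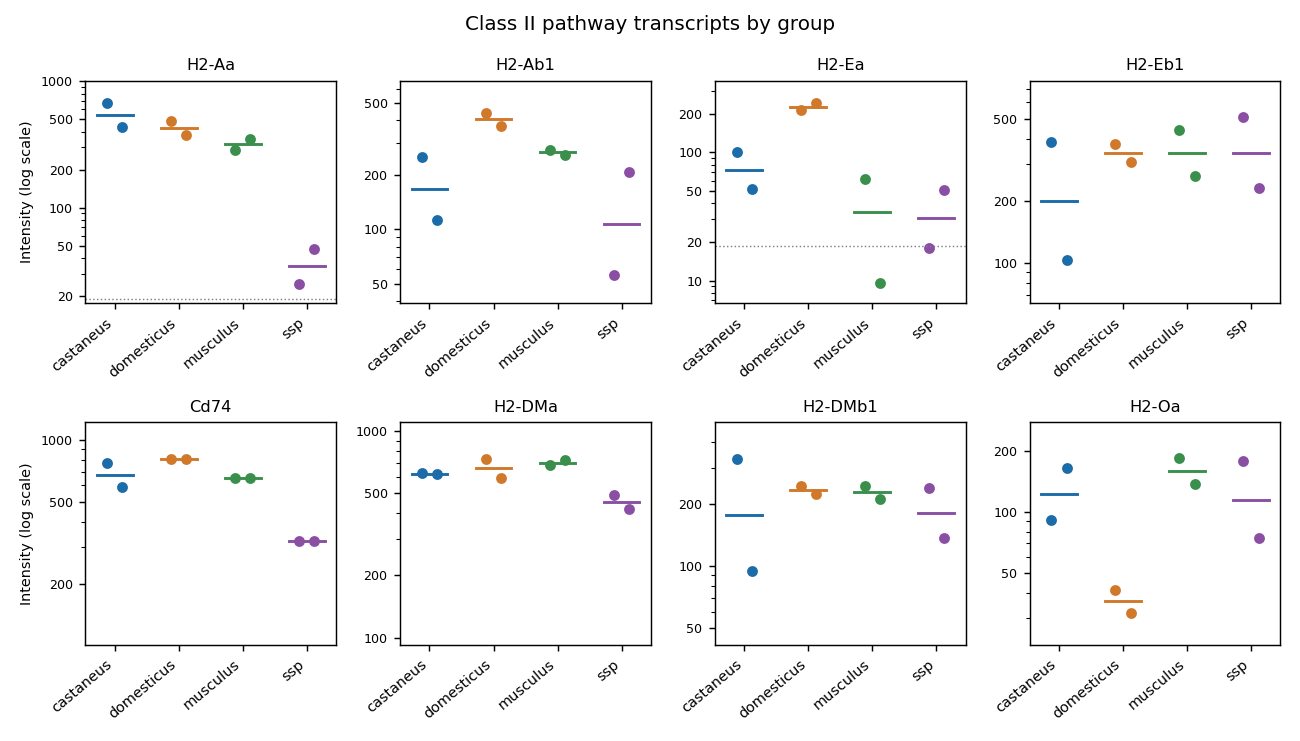
Intensity (log axis) of 8 class II pathway probe sets on each array, with the 4 groups along each panel, points for the 2 arrays, a bar for their geometric mean and a dotted line at the floor of 18.7 where it falls in range. H2-Aa, Cd74 and H2-DMa were lowest on both ssp arrays, H2-Ea was highest and H2-Oa lowest on both domesticus arrays, and H2-Eb1 overlapped in all groups.

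Cd74, the invariant chain that occupies the class II groove, was low in ssp with close replicates. It read 766.6 and 587.2 in castaneus, 805.1 and 809.2 in domesticus, 654.8 and 652.4 in musculus, and 322.4 and 322.5 in ssp. Both ssp arrays lay below all others and both domesticus arrays above all others. Cd74 was 2.5-fold higher in domesticus than in ssp (log2 difference 1.32, limma, adjusted p = 0.092), 2.08-fold higher in castaneus than in ssp (adjusted p = 0.178) and 2.03-fold higher in musculus than in ssp (adjusted p = 0.141), and no comparison passed. Over the groups its adjusted p was 0.125, and it passed with the filter at the 60th percentile and with a trended and robust variance model.

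H2-DMa, the alpha chain of the peptide exchange factor, was also lowest on both ssp arrays, by less. It read 625.1 and 623.2 in castaneus, 737.5 and 595.2 in domesticus, 683.6 and 726.5 in musculus, and 492.9 and 418.2 in ssp (adjusted p = 0.47). Its beta chain H2-DMb1 read 331.6 and 94.7 in castaneus, 243.5 and 224 in domesticus, 244.4 and 211.8 in musculus, and 239.3 and 137.1 in ssp, with all groups overlapping. H2-DMb2, a second beta chain gene, differed more between replicates than between groups, with log2 SDs of 1.61 (castaneus), 1.41 (domesticus), 1.72 (musculus) and 0.57 (ssp). H2-Oa, the alpha chain of the H2-DM inhibitor H2-O, went another way. It read 91.8 and 165.3 in castaneus, 41.4 and 31.6 in domesticus, 184.8 and 137.7 in musculus, and 179.4 and 74.3 in ssp, with both domesticus arrays below the other 6 (adjusted p = 0.21). Its beta chain H2-Ob read 12.8 to 117.8 over the arrays and was not tested.

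Ciita, which switches class II genes on, was too variable between replicates to be ordered by group. It read 189 and 28.1 in castaneus, 149 and 37.5 in domesticus, 117.5 and 29.4 in musculus, and 62.8 and 42.9 in ssp. In every group replicate 1 was the higher array, with SDs of up to 1.94 log2, and all groups overlapped (limma, adjusted p = 0.981, SE of a difference between groups 1.14 log2). Ciita, H2-Eb1 and H2-DMb1 were among 7 of the 48 tested probe sets that were higher on replicate 1 in all 4 groups, beside 12.7% of all tested probe sets. Of class II as a whole, 1 of 10 tested class II probe sets was called and 4 had an unadjusted p under 0.05, those of H2-Aa, Cd74, H2-Oa and H2-Ea, beside 1.76% and 15.9% of all tested probe sets. The lowest group mean was that of ssp for 6 of the 10, beside 23.1% of all tested probe sets.

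In the class I pathway, beta 2-microglobulin, the light chain shared by class I molecules, was highest in musculus and lowest in ssp. B2m read 604.2 and 635 in castaneus, 436.2 and 396.6 in domesticus, 722.2 and 765.3 in musculus, and 296.4 and 386.5 in ssp. Both musculus arrays lay above and both ssp arrays below all others, and only the ssp and domesticus values came close. B2m was 2.2-fold higher in musculus than in ssp (log2 difference 1.14, adjusted p = 0.125) and its difference among groups did not pass (limma, adjusted p = 0.17, unadjusted p = 0.0117). Most Leydig cell markers were high in the same group, with the summed intensity of 5 markers at 3966 to 5175 in castaneus, 4011 to 4158 in domesticus, 12901 to 13833 in musculus and 2769 to 3105 in ssp. Cyp17a1 alone read 8656.3 and 9709 in musculus by its brighter probe set. Cyp11a1, Hsd3b1 and Star were also highest on both musculus arrays by their brightest probe sets. Insl3 had its highest mean in ssp, at 150, beside 140 in musculus. The dimmer Cyp17a1 probe set had its lowest mean in musculus, at 102. Star and Cyp17a1, of steroid synthesis, were called among groups by 1 of their 2 probe sets each. Their part in the B2m values was not tested.

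The peptide transporter and its partner gave no call. Tap1, by its tested probe set, read 165.2 and 157.8 in castaneus, 147.1 and 31.7 in domesticus, 267.6 and 105.4 in musculus, and 18.7 and 69.6 in ssp. The ssp arrays overlapped only with domesticus, and the replicates of domesticus and ssp lay far apart (adjusted p = 0.468). The other Tap1 probe set read 10.5 to 103.9 and was too dim to be tested. Tap2, the second subunit of the transporter, read 179.5 and 53.5 in castaneus, 166.8 and 56.2 in domesticus, 79.6 and 98.4 in musculus, and 216.8 and 86.9 in ssp, with all groups overlapping. The 3 probe sets of Tapbp, tapasin, which links the transporter to empty class I molecules, spanned 0.31 to 0.54 log2 among group means, and their adjusted p was 0.732, 0.83 and 0.968.

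The 3 catalytic subunits of the immunoproteasome, which replace constitutive subunits after interferon exposure, were not alike. Psmb10 read 256.9 and 249.9 in castaneus, 317.8 and 237.8 in domesticus, 347.1 and 248.8 in musculus, and 150.3 and 169.7 in ssp, with both ssp arrays below all others (adjusted p = 0.362). Psmb8 read 255.8 and 158.9 in castaneus, 174.6 and 158.8 in domesticus, 113 and 194.4 in musculus, and 26.8 and 146.6 in ssp, where the mean rests on 1 low array. Psmb9 had its 2 highest values, 171 and 129.4, on replicate 1 of musculus and of ssp, whose other arrays read 20.1 and 37, and lay between 24.2 and 43.9 in castaneus and domesticus. None of the 9 tested probe sets of class I partners passed by limma, and that of B2m had an unadjusted p under 0.05.

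**Figure D3:**
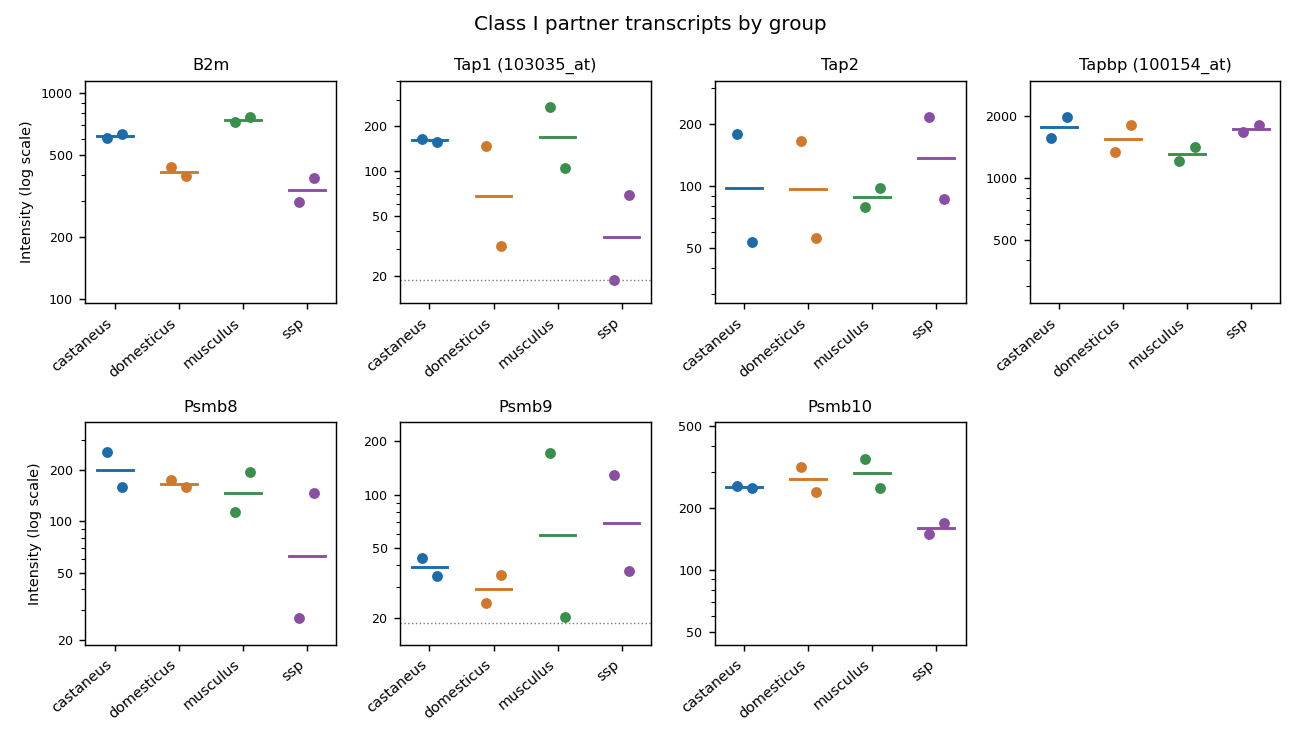
Intensity (log axis) of 7 class I partner probe sets on each array, with the 4 groups along each panel, points for the 2 arrays, a bar for their geometric mean and a dotted line at the floor of 18.7 where it falls in range. B2m was highest on both musculus arrays and lowest on both ssp arrays, Psmb10 was lowest on both ssp arrays, and Tap2 overlapped in all groups.

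Among class I heavy chains, a probe set annotated to H2-T9, H2-T22 and H2-T10 split the groups 2 against 2. H2-T22 and H2-T10 encode nonclassical molecules known as ligands of gamma delta T cells. The probe set read 485.1 and 306.6 in castaneus, 36.6 and 57.5 in domesticus, 363.6 and 334.9 in musculus, and 31.2 and 72.1 in ssp. The castaneus and musculus arrays all lay above the domesticus and ssp arrays, with overlap within each side. The difference among groups was called (limma, adjusted p = 0.0432), but not with replicate number as a block in the fit (0.0876). It was 8.41-fold higher in castaneus than in domesticus (log2 difference 3.07, SE 0.48, adjusted p = 0.0626), 8.13-fold higher in castaneus than in ssp (adjusted p = 0.0841) and 7.36-fold higher in musculus than in ssp (adjusted p = 0.0606), and domesticus minus musculus was -2.93 log2 (adjusted p = 0.071), so that no single pair passed. Leaving out any 1 of the 8 arrays ended the call (adjusted p = 0.0594 to 0.138) with castaneus minus domesticus at 2.74 to 3.4 log2, as did quantile normalization (0.0525) and testing without a filter (0.0882).

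The other probe set of the same 3 genes shared the low ssp and high castaneus values but not the gap between musculus and domesticus. It read 357.4 and 308 in castaneus, 131.7 and 112.5 in domesticus, 156.9 and 178.8 in musculus, and 87 and 17.9 in ssp, with 1 ssp array under the floor. Both castaneus arrays lay above and both ssp arrays below all others, and the difference did not pass (adjusted p = 0.205). Musculus and domesticus thus lay 7.61-fold apart by the first probe set and 1.38-fold apart by the second, both times higher in musculus. The second probe set was called among the groups when ssp replicate 1 was left out, but ssp then rests only on the array at 17.9, under the floor.

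The promoters of H2-T22 and of B2m, whose products are the heavy and light chains of 1 molecule, are given for the same 250 bases before the start in the C57BL/6J reference (RefSeq, GRCm38.p6). H2-T22 lies on the minus strand at chr17:36042743-36042992 and B2m on the plus strand at chr2:122147437-122147686. Capitals mark, on either strand, the Y box ATTGG and the interferon response element core AANNGAAAC.
H2-T22: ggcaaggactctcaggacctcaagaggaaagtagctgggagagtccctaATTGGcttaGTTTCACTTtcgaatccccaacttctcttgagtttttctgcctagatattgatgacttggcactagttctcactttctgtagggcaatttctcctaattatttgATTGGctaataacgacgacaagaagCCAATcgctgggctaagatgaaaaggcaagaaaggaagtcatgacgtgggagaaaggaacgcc
B2m: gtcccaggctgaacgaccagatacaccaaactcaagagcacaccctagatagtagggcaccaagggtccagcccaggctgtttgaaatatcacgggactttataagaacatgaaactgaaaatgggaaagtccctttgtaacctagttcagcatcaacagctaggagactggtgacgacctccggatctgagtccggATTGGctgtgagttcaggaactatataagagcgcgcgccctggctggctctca
The interferon response element core was present in the H2-T22 window, from -192 to -184 on the reverse strand. The B2m window has no exact match to these letters but holds aactgaaaa, which differs from them only in the last base. Other forms of the element were not searched for, so its absence from B2m is not shown. It was present in 4.95% of all windows and in those of 10 of 21 class I pathway genes, against 1 of 8 class II genes, H2-Eb2. The windows of H2-K1 and H2-D1, the 2 classical heavy chains, also held the palindromic NF-kB element, found in 0.0304% of all windows.

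Probe sets annotated to the same classical heavy chain gene ran in opposite directions across the groups. Those that did so all carry the suffix _f and may bind transcripts of related genes. H2-K1 and H2-D1 present peptides on most cell types, and their probe sets are singled out here after their values had been seen. For H2-K1, the brightest probe set read 2743 and 3338.6 in castaneus, 3334.3 and 3884.2 in domesticus, 3716.6 and 4116.7 in musculus, and 2073.1 and 1983.2 in ssp, with both ssp arrays below all others. The next H2-K1 probe set read 449.4 and 359.1 in castaneus, 833 and 767.3 in domesticus, 463.5 and 419.1 in musculus, and 981.1 and 874.7 in ssp, with both ssp arrays above all others. The 2 sets of values thus order ssp at opposite ends. The adjusted p among groups was 0.249 for the brightest and 0.117 for the next, with unadjusted p of 0.0293 and 0.00518. The dimmest, the only H2-K1 probe set without a suffix, read 35.8 to 291.6 with domesticus and ssp replicates far apart (adjusted p = 0.514).

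H2-D1 showed the same disagreement, among probe sets that all carry the suffix _f. Its probe set of middle brightness read 717.3 and 751.2 in castaneus, 1111.9 and 1021.4 in domesticus, 911.7 and 759.1 in musculus, and 1417.6 and 1330.9 in ssp. Both ssp arrays were above and both castaneus arrays below all others (adjusted p = 0.254). The dimmest read 240.8 and 304 in castaneus, 248 and 300.4 in domesticus, 202.8 and 323.6 in musculus, and 124.2 and 196.9 in ssp, lowest on both ssp arrays (adjusted p = 0.517). The brightest also had its lowest mean in ssp, as castaneus averaged 2886, domesticus 3149, musculus 2206 and ssp 1782 (adjusted p = 0.438). Another class I gene, H2-K2, was highest on both castaneus arrays, at 2844.3 and 3638.9, and lowest on both musculus arrays, at 1812.5 and 1560.4 (adjusted p = 0.333). Its probe set carries the suffix _f as well.

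**Figure D4:**
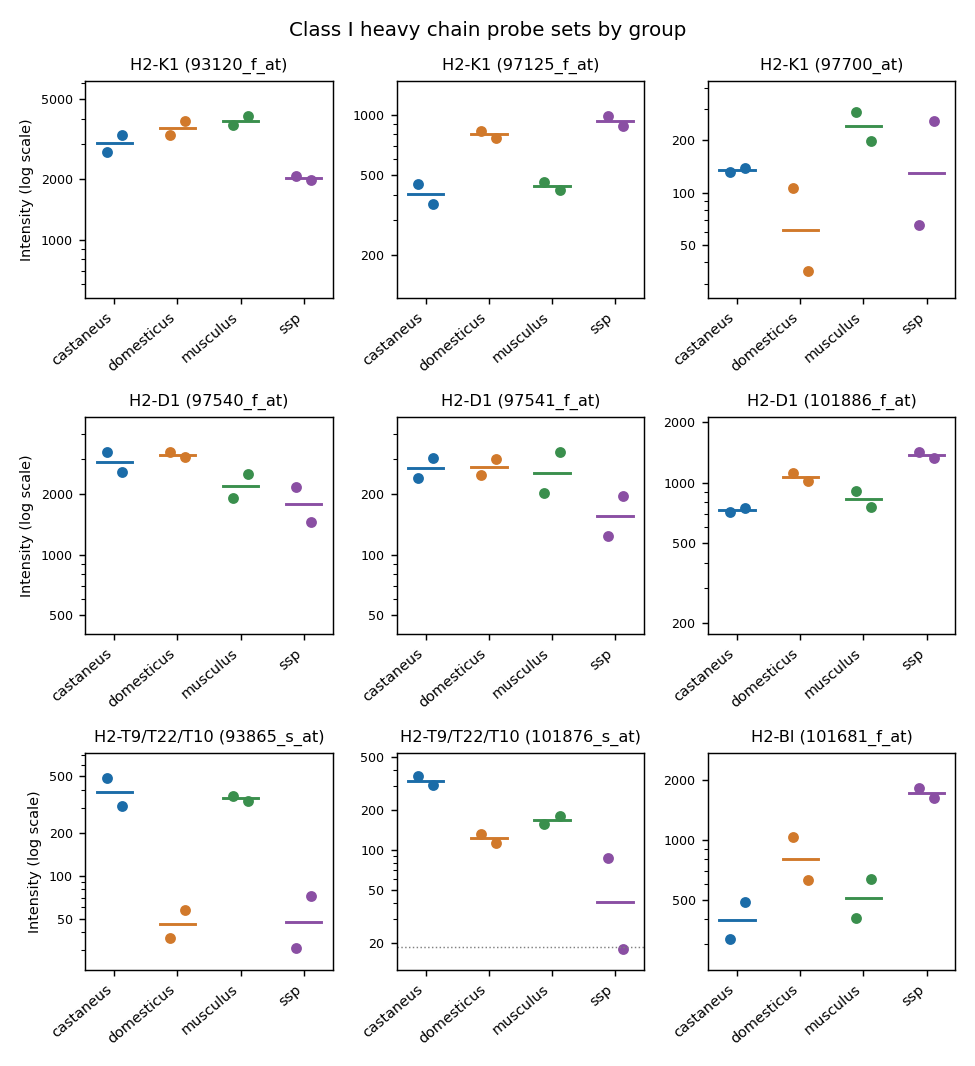
Intensity (log axis) of 9 class I heavy chain probe sets on each array, titled by gene and identifier, with points for the 2 arrays, a bar for their geometric mean and a dotted line at the floor of 18.7 where it falls in range. The 2 ssp arrays are lowest in the first H2-K1 panel and highest in the next, lowest in the middle H2-D1 panel and highest in the last, and the first panel of H2-T9, H2-T22 and H2-T10 separates castaneus and musculus from domesticus and ssp.

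Several probe sets of nonclassical heavy chains were highest in ssp. That of H2-Bl and the tested one of H2-T3 and H2-T18 carry the suffix _f and may bind transcripts of related genes. H2-Bl, a class I gene first found in blastocysts, read 318.6 and 488.6 in castaneus, 1028.6 and 629.8 in domesticus, 407.3 and 635.2 in musculus, and 1818.8 and 1623 in ssp. Both ssp arrays lay above the other 6. Castaneus minus ssp was -2.12 log2 (SE 0.39, limma, adjusted p = 0.118) and the difference among groups did not pass (adjusted p = 0.125). H2-M3, which presents formylated peptides, was highest on both ssp arrays by the probe set without a suffix, at 31 and 85.8 in castaneus, 49 and 55 in domesticus, 54.7 and 23.3 in musculus, and 142.8 and 239.2 in ssp (adjusted p = 0.26). Its other probe set, with the suffix _g, had its lowest mean in ssp, as castaneus averaged 305, domesticus 221, musculus 170 and ssp 122, so that the probe sets of H2-M3 disagreed as well.

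H2-M10.1, of a family known from vomeronasal neurons in mice, had 3 tested probe sets, of which the dimmest spanned most. It read 33.7 and 145 in castaneus, 35.4 and 34.7 in domesticus, 53.3 and 48.1 in musculus, and 146.6 and 142.9 in ssp, where 1 castaneus array came up to the ssp level (adjusted p = 0.365). By the one with the suffix _g both ssp arrays, at 354.4 and 468.1, were above all others, and by the remaining one the highest mean was that of musculus, at 407. A probe set of H2-T3 and H2-T18, the thymus leukaemia antigens, was highest on both ssp arrays too, at 305.1 and 284.5, against 91.4 to 200.7 on the others (adjusted p = 0.305). A probe set of H2-T18 alone read 122.1 and 720.8 on the 2 ssp arrays and showed no order of groups.

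Other heavy chains were low in castaneus. H2-Q5, in the Q region, read 82.9 and 51.6 in castaneus, 354.9 and 205.2 in domesticus, 268.8 and 249.1 in musculus, and 253.7 and 76.2 in ssp, where 1 ssp array fell among the castaneus values (adjusted p = 0.294). The probe set of H2-T23, whose product Qa-1 shows leader peptides of other class I chains to natural killer cells, and of H2-T-ps read 100.2 and 35.3 in castaneus, 168.3 and 236.4 in domesticus, 172.3 and 231.9 in musculus, and 140.1 and 148.1 in ssp, with both castaneus arrays below all others (adjusted p = 0.28). The probe set of H2-K2 and H2-Q2 had its lowest mean in castaneus with a log2 SD of 1.4 (adjusted p = 0.728). The remaining tested heavy chain probe sets, among them those of H2-Q4, of H2-Q9, H2-Q7 and H2-Q5, of H2-M2, H2-M9 and H2-T24, and the probe sets annotated to several families, had adjusted p-values of 0.491 or more. In all, 1 of 27 tested heavy chain probe sets was called and 10 had an unadjusted p under 0.05, beside 1.76% and 15.9% of all tested probe sets. Of these 10, 8 carry an identifier suffix, as do 19 of the 27.

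Counted over all 48 tested probe sets, ssp stood apart more often than the other groups. Both ssp arrays were below the other 6 for 9 of the 48, 18.8%, beside 5.17% of all tested probe sets, and above the other 6 for 7 of the 48, 14.6%, beside 6.42%. The 9 were those of H2-Aa, Cd74 and H2-DMa in class II, of B2m, Psmb10, H2-K1, H2-D1 and H2-T9, H2-T22 and H2-T10 in class I, and of H2-Ke6, a hydroxysteroid dehydrogenase gene that lies in the complex. The 7 were all class I heavy chain probe sets, and 6 of them carry a suffix. Among the 9, the probe sets of H2-K1, of H2-D1, of H2-T9, H2-T22 and H2-T10, and of H2-Ke6 carry one as well. Both castaneus arrays were lowest for 2 of the 48 (beside 5.43%) and highest for 3 (5.74%). Both domesticus arrays were lowest for 1 (5.47%) and highest for 4 (6.13%), the 4 being H2-Ab1, H2-Ea, Cd74 and H2-Ke6. Both musculus arrays were lowest for 1 (6.67%) and highest for 2 (6.37%). Probe sets of related genes can read the same RNA, so these are not counts of independent genes.

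The 6 pairs of groups share arrays, and each was tested over all probe sets. For castaneus minus domesticus, none of the 48 was called by limma and 6 had an unadjusted p under 0.05, beside 0.676% called and 975 under 0.05 of all 8874. The median log2 difference was -0.01 over 36 class I and -0.18 over 10 class II probe sets, beside 0.02 over all. For castaneus minus musculus, none was called and 3 were under 0.05 unadjusted, beside 0.947% and 1194 of all, with medians of 0.07 in class I and -0.23 in class II. For domesticus minus musculus, none was called and 6 were under 0.05 unadjusted, beside 0.744% and 1082 of all, with medians of 0.13 in class I and 0.17 in class II. Between these 3 groups, then, no histocompatibility probe set passed in a single pair.

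In each pair with ssp, H2-Aa was the only one of the 48 called. For castaneus minus ssp, 0.349% of all tested probe sets were called, and the median was -0.17 in class I, with 17 of 36 positive, and 0.47 in class II, with 7 of 10 positive, beside -0.03 over all. For domesticus minus ssp, 0.687% of all were called, and the median was -0.04 in class I, with 17 of 36 positive, and 0.54 in class II, with 7 of 10 positive, beside -0.05 over all. For musculus minus ssp, 0.98% of all were called, and the median was 0.05 in class I, with 18 of 36 positive, and 0.40 in class II, with 8 of 10 positive, beside -0.04 over all. In these 3 pairs 12, 13 and 13 of the 48 had an unadjusted p under 0.05, beside 961, 1102 and 1183 of the 8874.

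H2-Ke6 belongs to neither class, and its 2 probe sets differed. The probe set with the suffix _s read 333.2 and 332.6 in castaneus, 437.8 and 530 in domesticus, 324.1 and 390.4 in musculus, and 275.5 and 310.3 in ssp, highest on both domesticus and lowest on both ssp arrays (adjusted p = 0.432). The other had its lowest mean, 75.2, in domesticus and read 180.4 and 180.7 in ssp (adjusted p = 0.588).

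Of 42 further genes of antigen processing, 34 had a probe set and 27 were tested. None of their 32 tested probe sets differed among the 4 groups by limma, and 8 had an unadjusted p under 0.05, beside 1.76% called and 15.9% under 0.05 of all tested probe sets. Psme1, a subunit of the interferon-induced proteasome activator, averaged 262 (castaneus), 348 (domesticus), 379 (musculus) and 87.2 (ssp) by its tested probe set. By it, Psme1 was called between musculus and ssp (limma, log2 difference 2.12, adjusted p = 0.0436). This probe set missed the threshold among the 4 groups (adjusted p = 0.0595). The other Psme1 probe set, with the suffix _r, was too dim to be tested and had its highest mean, 34.4, in ssp. Irf8, a transcription factor of macrophages and dendritic cells, averaged 133 (castaneus), 235 (domesticus), 452 (musculus) and 93.3 (ssp) (adjusted p = 0.0847). Creb1, which binds next to the X box, by the probe set with the suffix _g, and Ifngr1, an interferon gamma receptor chain, were the others with the widest ranges, at 2.22 and 2.19 log2, and were not called (adjusted p = 0.207 and 0.409). The other tested probe set of Creb1 had another order of groups. Ctss, the cathepsin that trims the invariant chain, averaged 242 (castaneus), 241 (domesticus), 282 (musculus) and 94.8 (ssp) (adjusted p = 0.381). Rfxank, of the same lists, was highest on both ssp arrays and averaged 394 (castaneus), 429 (domesticus), 462 (musculus) and 626 (ssp) (adjusted p = 0.531). Both were named after their values had been seen. Of the 34 genes, each by its probe set brightest on average, 11 had their lowest mean in ssp.

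No marker of the cells that carry class II was called among the groups, and single markers ordered the groups in different ways. Of 10 macrophage markers 9 had a probe set, 7 were tested and none was called by limma, with 2 of 8 tested probe sets under 0.05 unadjusted. Their summed intensity, with each gene read by its probe set brightest on average, was 1539 to 1938 in castaneus, 1967 to 2126 in domesticus, 2062 to 2750 in musculus and 1497 to 2384 in ssp. In this sum ssp overlapped each other group. Csf1r, the receptor that sustains macrophages, by 1 probe set, averaged 270 (castaneus), 323 (domesticus), 621 (musculus) and 206 (ssp) (adjusted p = 0.123). By that probe set it was lowest on both ssp arrays, at 225.9 and 187.7. Its other probe set, with the suffix _r, had means of 531 to 630 and is the one in the sum, with 444.3 and 871.9 in ssp. The overlap of ssp with musculus in the sum rests on that _r probe set. With the probe set that was low in ssp in its place, both ssp sums lay below both musculus sums. Lyz2, a lysozyme of macrophages, was lowest on both castaneus arrays and averaged 33.3 (castaneus), 302 (domesticus), 303 (musculus) and 135 (ssp), with an adjusted p of 0.093. Cd68, a lysosomal protein of macrophages, was highest on both musculus arrays, with means of 166 (castaneus), 188 (domesticus), 310 (musculus) and 120 (ssp). Fcgr1, an Fc receptor, was by its tested probe set highest on both ssp arrays, with means of 277 (castaneus), 216 (domesticus), 223 (musculus) and 362 (ssp). Fcgr3, another Fc receptor, had its lowest mean in ssp, with means of 189 (castaneus), 163 (domesticus), 96.1 (musculus) and 69.9 (ssp) (limma, adjusted p = 0.35). These markers thus did not share 1 order of groups. Adgre1, a defining macrophage marker, was too dim to be tested, with means of 18.7 to 42.4. The 4 measured of 5 dendritic cell markers summed to 992 to 1089 in castaneus, 711 to 972 in domesticus, 1251 to 1438 in musculus and 1210 to 2013 in ssp. Itgax, the CD11c integrin chain, was highest on both ssp arrays, at 399.8 and 644, against 101.2 to 280.9 on the others (adjusted p = 0.317). Xcr1, a chemokine receptor of dendritic cells, was lowest on both castaneus arrays, at 21.6 and 37.6 (adjusted p = 0.326). The 4 measured of 5 B cell markers summed to 597 to 610 in castaneus, 458 to 654 in domesticus, 436 to 1042 in musculus and 654 to 690 in ssp. The 6 measured of 7 T cell markers summed to 585 to 607 in castaneus, 653 to 664 in domesticus, 278 to 638 in musculus and 454 to 857 in ssp. Ptprc, carried by all leukocytes, was too dim to be tested, at 9 to 64 by the probe set brightest on average. No dendritic, B cell or T cell marker was called, and no measured marker of these 5 lists was under the floor on all 8 arrays by its brightest probe set. The part of these cells in the H2-Aa and Cd74 values was not tested.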

How the data were processed

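Testis RNA of 4 groups of 2 arrays was measured, with groups and replicate numbers taken from the titles. The values are the authors' deposited intensity of each probe set on a linear scale, 1 column per array. The method behind them was not given in the sources used here. Values show that arrays had been scaled, since the mean after trimming 2% at each end was 495.1 to 495.9 on every array. Gene symbols came from the platform annotation, which gave 1 symbol to 10833 probe sets, several to 396 and none to 1193. H2-Bl was placed in class I.

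Intensities under 18.7, the 10th percentile of all values, were raised to it, and log2 was taken with no further scaling. Probe sets at or above their array's 40th percentile on at least 2 arrays were kept (8874 of 12422). One mean per group was fitted over 8 arrays with limma 3.58.1 in R 4.3.3 (lmFit, eBayes, residual df 4, prior df 2.34), followed by a moderated F test and 6 contrasts, the first group by alphabet minus the second, each adjusted by Benjamini-Hochberg over all tested probe sets. The procedure was tested on simulated data. Tables and figures were made in Python 3.11.15 with pandas 2.3.3 and matplotlib 3.10.9. The number of arrays limits the precision.

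The members and gene lists were chosen with earlier results of these data known, and the X box letters after the promoters had been read. Named were all called probe sets, all those of the class II chains and of the 9 genes listed by name, the 10 class I heavy chain probe sets with the largest range of group means, and, of other antigen processing genes, those called and the 4 with the largest range. Names outside this rule were chosen after their values were seen. Deviations of same-numbered replicates from their group means correlated at 0.03 to 0.17 between groups, and the main fit did not take the numbers as pairs. Replicate 1 was above replicate 2 in all 4 groups for 12.7% of tested probe sets and below it for 11.3%. An effect of replicate number was not tested beyond the replicate block. Alternatives were a replicate block, leaving out each array, other filters and floors, log2(intensity + 16), median centring, quantile normalization, a trended and robust variance, fits of each pair alone, and members with 1 symbol and no suffix.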

Additional observations from a re-analysis of the deposited data

How the results depend on the processing

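With 2 technical replicate arrays per group, the calls rest on the variance shared across probe sets, and values near the floor of 18.7 hold little signal over background. Leaving out any 1 array lowered the calls over all tested probe sets to between 7 and 43, against 156 with all arrays. It gave 0 to 1 called probe sets in class I and 0 to 0 in class II, against 1 in each, and 0 to 0 for castaneus minus ssp, 0 to 0 for domesticus minus ssp and 0 to 1 for musculus minus ssp, against 1 in each. The 1 in class I, without ssp replicate 1, was the other probe set of H2-T9, H2-T22 and H2-T10.

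With the replicate block, 42 probe sets were called over the whole array. It left 0 called in class I, 0 in class II, and 0 in each of the 3 pairs with ssp, where the adjusted p of H2-Aa was 0.0704 to 0.078. Among the 4 groups its adjusted p was then 0.0659, and that of the called probe set of H2-T9, H2-T22 and H2-T10 was 0.0876. No filter on dim probe sets also gave 0 in both classes and 0 in each pair with ssp, with 12422 probe sets in the adjustment and 31 called. The filter at the 60th percentile gave 2 in class I, 2 in class II, 1 for castaneus minus domesticus, 3 for castaneus minus ssp, 1 for domesticus minus musculus, 2 for domesticus minus ssp and 2 for musculus minus ssp, with 309 called over 5882 tested. The trended and robust variance gave 3 in class I, 2 in class II, 1 for castaneus minus domesticus, 2 for castaneus minus ssp, 1 for domesticus minus musculus, 2 for domesticus minus ssp and 3 for musculus minus ssp, with 383 called over all. Both log2(intensity + 16) and the floor at the 20th percentile gave 1 for castaneus minus domesticus, 1 for domesticus minus musculus and 2 for musculus minus ssp. Quantile normalization and the restriction to 1 symbol and no suffix gave 0 in class I. Fits of only the 4 arrays of a pair gave 0 for each pair with ssp. The cause of these shifts was not tested beyond the number of arrays and probe sets in each fit.

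Of the 48 tested probe sets, 8 values changed sign, all of probe sets that were not called and all with 1 array left out. Over the arrays left out, domesticus minus musculus of H2-M2 ran from -0.26 (without domesticus replicate 1) to 0.66 log2, musculus minus ssp of 1 Tapbp probe set from -0.75 to 0.14 (without ssp replicate 1) and of Tap2 from -1.29 to 0.03 (without ssp replicate 1). Castaneus minus ssp of H2-T18 ran from -0.39 (without ssp replicate 1) to 2.17 and of H2-Eb1 from -1.74 to 0.17 (without castaneus replicate 2), and domesticus minus ssp of Ciita from -0.47 (without domesticus replicate 1) to 1.52. Castaneus minus domesticus of H2-DMb1 ran from -1.3 to 0.51 (without castaneus replicate 2) and castaneus minus musculus of H2-T24 from -1.85 to 0.36 (without castaneus replicate 1). The cause was not tested.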

Other observations

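The 13 probe sets too dim to be tested, 8 of class I and 5 of class II, lay between 6.3 and 180.6. H2-Q1, a Q region heavy chain, gave 70.4 and 18.2 in castaneus, 32.9 and 43.8 in domesticus, 17.5 and 64.4 in musculus, and 109.6 and 180.6 in ssp, so that both ssp arrays lay above the other 6. The probe set shared by H2-DMb2 and H2-DMb1 gave 76.1 and 15.9 in castaneus, 51 and 27.4 in domesticus, 114.5 and 123.5 in musculus, and 83.5 and 20.9 in ssp, with both musculus arrays highest. The dim H2-DMa probe set gave 63.1 and 124 in castaneus, 37.5 and 37.7 in domesticus, 72.5 and 55.4 in musculus, and 55 and 68.9 in ssp, an order unlike that of the bright H2-DMa probe set. The dimmer H2-D4 probe set stayed between 19.8 and 29.9 on all 8 arrays, H2-M1 between 18.4 and 62.9, and H2-Q10, a secreted class I chain known from liver, between 12 and 94.7.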
